A study of Homo sapiens with 66 samples.

Results

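The transcripts of 10 chemokine genes were followed in 11 acute myeloid leukemia (AML) cell lines before and after etoposide. The genes were CXCL8, CXCL1, CXCL2, CXCL3, CXCL10, CXCL16, CCL2, CCL3, CCL4 and CCL5, taken by symbol from the 57992 gene identifiers analysed. The set was chosen by the measured etoposide response of CXCL8, whose read count was higher after etoposide in each of the 10 cell lines with usable etoposide libraries. Changes of all 10 genes in those cell lines are therefore given as a description, without p-values.

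RNA was sequenced from F36P, HL60, KASUMI1, MOLM13, MONOMAC6, MV411, NB4, NOMO1, OCIAML2, OCIAML3 and THP1, each left untreated or exposed for 24 hours to etoposide, a topoisomerase II poison that stabilises DNA breaks made by the enzyme. Every group held 3 libraries, described as biological replicates, which made 66 libraries in all, and each library came from 3 pooled wells. Each cell line received its own IC50, the concentration at which viability is reduced to 50%, so concentration differed between cell lines. All are established lines of malignant myeloid cells, and replicates were repeated cultures of 1 line and not separate donors. The F36P medium also held the growth factor GM-CSF. The study discarded the etoposide libraries of OCIAML2 for poor raw reads, so that line is described apart from the other 10.

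Chemokines are small secreted proteins that bind receptors coupled to G proteins and direct the movement of leukocytes. The CXC members CXCL8, CXCL1, CXCL2 and CXCL3 act on CXCR2, in part on CXCR1, and draw neutrophils, whereas CXCL10 acts on CXCR3 on activated lymphocytes and is a classical interferon target. CC members act mainly on monocytes, macrophages and T cells through receptors such as CCR1 and CCR2. Monocytes transcribe many of these genes at low levels and raise them after NF-kB activation.

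Except for CXCL16, the genes sit in 2 clusters, a CXC cluster on chromosome 4 and a CC cluster on chromosome 17. On GRCh38 (gencode 44), CXCL8 lies at chr4:73740519-73743716, CXCL1 at chr4:73869393-73871308, CXCL3 at chr4:74036589-74038807, CXCL2 at chr4:74097040-74099196 and CXCL10 at chr4:76021118-76023497. CCL2 lies at chr17:34255274-34257208, CCL5 at chr17:35871491-35880793, CCL3 at chr17:36088256-36090169, CCL4 at chr17:36103827-36105621 and CXCL16, away from the CC cluster, at chr17:4733533-4739928. Within their exons, 13.4% of the 50-base windows of CXCL2 recur in another gene, mostly CXCL3, and 9.40% of those of CCL4 recur, all of them in CCL4L2. For CCL3 the share was 4.93%, all in CCL3L3, and for CCL5 it was 15.6%, mostly in the gene ENSG00000280138. Reads from shared windows may not be told apart by sequence, so the counts of these genes could be affected. CXCL10 lies within the bounds of ART3, and CCL3 and CCL5 overlap long noncoding RNA genes, in each case on the opposite strand.

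The 250 bases before the transcription start in RefSeq show what the CXC genes have in common there. These sequences (RefSeq, GRCh38.p14, 5′ to 3′ on the strand of the gene) were found for 6 of the 10 genes, and 5 of them hold the NF-kB site GGAATTTCC, on either strand, which occurs in 0.413% of the 35116 promoters searched. Capitals mark this site and 3 other sequences, which were the NF-kB site GGGACTTCC (in 0.797% of promoters), the AP-1 site TGACTCA (in 4.20%) and the interferon response core, which is GAAA and GAAA with any 2 bases between them (in 3.02%). The motifs were chosen with these genes in mind, each was searched on both strands, and a match is a description of letters and not a measured binding site.
CXCL8 (chr4:73740319-73740568, plus strand): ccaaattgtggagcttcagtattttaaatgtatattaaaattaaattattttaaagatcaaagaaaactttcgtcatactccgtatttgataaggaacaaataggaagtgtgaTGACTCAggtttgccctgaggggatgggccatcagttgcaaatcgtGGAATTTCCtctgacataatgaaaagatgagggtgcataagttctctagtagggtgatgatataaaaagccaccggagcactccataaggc
CXCL1 (chr4:73869143-73869392, plus strand): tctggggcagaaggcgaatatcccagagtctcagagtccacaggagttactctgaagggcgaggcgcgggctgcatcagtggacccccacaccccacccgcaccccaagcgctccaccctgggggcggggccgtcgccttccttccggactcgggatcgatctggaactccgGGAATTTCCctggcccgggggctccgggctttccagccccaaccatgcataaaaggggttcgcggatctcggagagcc
CXCL2 (chr4:74099196-74099445, minus strand): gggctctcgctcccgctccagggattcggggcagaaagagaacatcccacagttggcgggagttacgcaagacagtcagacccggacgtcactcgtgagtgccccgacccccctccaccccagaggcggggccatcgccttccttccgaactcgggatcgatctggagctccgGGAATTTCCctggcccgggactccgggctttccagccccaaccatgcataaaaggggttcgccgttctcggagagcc
CXCL3 (chr4:74038690-74038939, minus strand): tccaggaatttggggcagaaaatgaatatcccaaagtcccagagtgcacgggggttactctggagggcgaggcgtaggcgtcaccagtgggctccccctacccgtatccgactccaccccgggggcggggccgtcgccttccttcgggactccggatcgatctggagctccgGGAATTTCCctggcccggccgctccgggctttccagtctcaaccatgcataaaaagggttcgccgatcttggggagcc
CXCL10 (chr4:76023498-76023747, minus strand): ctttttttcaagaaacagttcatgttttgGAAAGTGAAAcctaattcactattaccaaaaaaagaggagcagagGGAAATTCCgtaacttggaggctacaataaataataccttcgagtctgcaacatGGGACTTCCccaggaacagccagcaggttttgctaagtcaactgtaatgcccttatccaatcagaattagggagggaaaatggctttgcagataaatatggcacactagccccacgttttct
The site GGAATTTCC ran from 91 to 83 bases before the start of CXCL8, from 78 to 70 before CXCL1 and CXCL3, and from 77 to 69 before CXCL2. In CXCL10 it stood on the reverse strand, 176 to 168 bases before the start, beside GGGACTTCC and the interferon response core. The longest run of identical bases was 42 between CXCL1 and CXCL2, 37 between CXCL2 and CXCL3, and 25 between CXCL1 and CXCL3. Between CXCL8 and each of these 3 it was 9 bases, which was the NF-kB site itself. None of the 4 motifs was found in the 3 entries for CCL3.

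Reads on genes ranged from 17997404 to 24101670 per library, with a median of 20241014. Levels are given as CPM, the reads of a gene scaled to the total of its library, with TMM factors set within each cell line for etoposide comparisons and over the 33 untreated libraries in comparisons between untreated lines. The myeloid and leukocyte markers CD33, SPI1 and PTPRC were detected in every untreated line, with line means from 32.5 to 539.6 CPM. The other 2 myeloid markers were low in some lines, MPO ranging from 0.977 CPM in F36P to 27167 in KASUMI1 and LYZ from 2.65 CPM in HL60 to 5013 in OCIAML2. GATA1 reached 253 CPM in F36P, the line with an erythroid program, against a median of 0.0170 CPM over lines. Neither of the lymphoid markers CD3E and MS4A1 had a line mean above 3.30 CPM. Some libraries stood apart from their group in chemokine level, namely replicate 2 of F36P after etoposide (low), replicate 3 of HL60 and replicate 2 of NOMO1 after etoposide (high), and replicate 1 of untreated NB4 (low). Values without them are given for CXCL8, and for the other chemokines at least where leaving one out ended a call or moved a value by more than 1.5 times.

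Per kilobase of exon, CXCL8 was the most abundant of the 10 transcripts in 6 of the 11 untreated lines and CCL5 in the other 5, which were KASUMI1, MOLM13, MV411, NB4 and THP1. Averaged over the 11 untreated lines, where OCIAML3 and MONOMAC6 carry most of its level, CXCL8 stood at 15.3 CPM per kb, ahead of CCL5 at 10.4, CCL2 at 3.59 and CXCL1 at 3.39 CPM per kb. The remaining 6 were below 1 CPM per kb, the lowest being CCL4 at 0.0818. After etoposide, the average over the 10 lines other than OCIAML2 was 136 CPM per kb for CXCL8, followed by CCL5 at 16.3, CXCL10 at 15.8 and CCL2 at 13.9 CPM per kb.

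CXCL8, which encodes the neutrophil attractant interleukin-8, was higher after etoposide in all 10 lines, with no overlap between the untreated and the etoposide libraries. In MONOMAC6, it stood at 131, 117 and 127 CPM untreated and at 1064, 989 and 1002 CPM after etoposide, a log2 fold change of 3.03 ± 0.05 (SE). NOMO1 went from 68.2, 53.1 and 54.9 CPM to 851, 1714 and 884 CPM, which gave 4.29 ± 0.25. These were the highest levels reached after etoposide. In HL60, a promyelocytic line, CXCL8 was at 15.7, 13.3 and 17.7 CPM untreated and at 423, 313 and 720.3 CPM after etoposide, the largest log2 fold change of the 10 lines with all libraries at 4.96 ± 0.26. F36P had the lowest untreated mean, with libraries at 1.30, 1.10 and 1.67 CPM, and reached 20.6, 12.96 and 49.98 CPM after etoposide, a change of 4.35 ± 0.51. The F36P replicates differed more from each other, as multiples, than those of the 3 lines before it. Here and below, a share of cells with the transcript and the amount of RNA per cell cannot be told apart, since the samples are bulk. THP1 libraries held 8.17, 13.96 and 8.77 CPM untreated and 132, 77.1 and 134 CPM after etoposide, a log2 fold change of 3.47 ± 0.22.

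In the remaining lines the CXCL8 change was smaller. KASUMI1 went from 5.13, 7.36 and 5.59 to 44.2, 55.4 and 30.6 CPM, a log2 fold change of 2.85 ± 0.23. NB4 went from 14.5, 45.5 and 55.3 to 225, 269.7 and 280.0 CPM, which gave 2.75 ± 0.30. The untreated NB4 replicates differed more from each other, as multiples, than the treated ones. MOLM13 libraries read 7.81, 9.94 and 9.51 CPM untreated and 54.8, 51.0 and 44.5 CPM after etoposide, with a change of 2.46 ± 0.12. MV411 was the lowest line after etoposide, going from 1.21, 2.05 and 1.51 to 9.28, 6.98 and 7.98 CPM (2.35 ± 0.19). OCIAML3 had the highest untreated level, 124, 162 and 130.1 CPM, and the smallest change, to 412, 312 and 371 CPM (1.40 ± 0.13). By group mean OCIAML3, which led before treatment, was below NOMO1 and MONOMAC6 after it. The HL60 mean was higher too (485 against 365 CPM), but the HL60 and OCIAML3 libraries overlapped. Only HL60 replicate 3, at 720.3 CPM, lay far above those of OCIAML3. Levels after etoposide were scaled within each line, and their order between lines was not tested. Without the libraries that stood apart, the CXCL8 log2 fold change was 4.69 in F36P, 4.58 in HL60, 3.87 in NOMO1 and 2.35 in NB4, so that F36P and not HL60 then had the largest change. In F36P the value was 3.62 without etoposide replicate 3, the highest library.

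**Figure D1:**
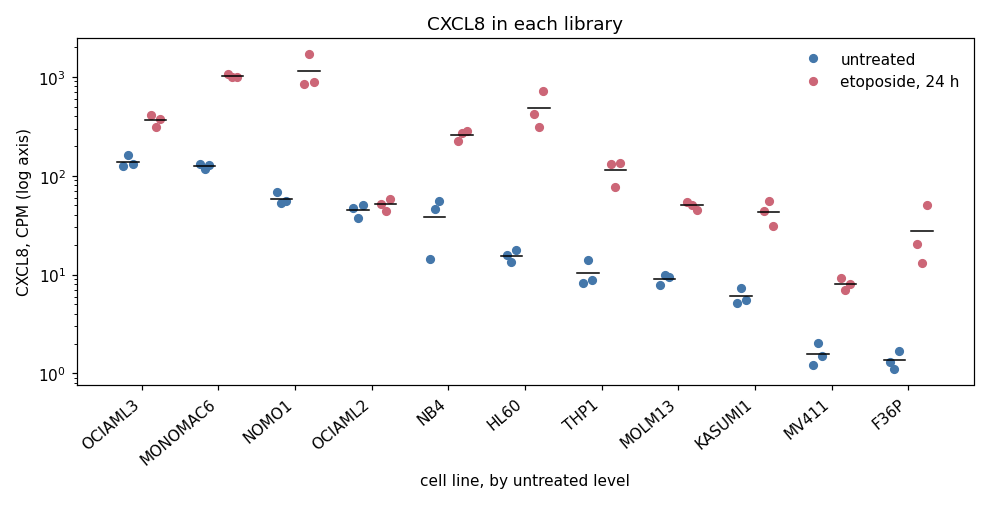
CXCL8 in CPM (log axis) in each of the 66 libraries, cell lines ordered from left to right by the untreated level; points are libraries and black bars are group means. In every line but OCIAML2 all 3 etoposide points lie above all 3 untreated points, and in OCIAML2 they overlap.

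A gene was called when its FDR in the edgeR quasi-likelihood test was below 0.05 and its fold change above 2. By that rule CXCL8 was called higher in 10 of 10 lines. The other 9 genes gave 46 calls in the 59 pairs of a gene and a cell line that had enough reads to be tested, and all 10 genes together gave 56 calls higher and 0 lower in 69 pairs. Over all genes tested in the 10 lines, 11.1% of pairs were called higher and 3.96% lower. Because the choice of genes used this contrast, nothing is read from the difference between these shares. Of the 100 pairs, 31 were not tested for too few reads. A further 26 had fewer than 10 reads in at least 1 untreated library, so that they passed the filter on low counts through their etoposide libraries, and all 26 were called. In the 43 pairs with at least 10 reads in every untreated library, 30 were called higher, and among all genes under that condition 6.72% of pairs were called higher and 4.31% lower. The median log2 fold change of the 69 tested pairs was 2.16, and the median over all genes of a line lay between -0.03 (THP1) and 0.09 (F36P). The 69 pairs include those of CXCL8 and the 26 with few untreated reads, so nothing is read from this difference either.

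The number of genes called higher, and the shares of all genes called higher and lower beside it, varied with the line. NOMO1 had 9 of 10 called (8.34% of all genes higher and 4.43% lower), as did MONOMAC6 (8.53% and 4.47%). THP1 had 8 of 8 called (6.38% and 3.46%), F36P 6 of 6 (24.3% and 6.67%) and HL60 6 of 6 (5.34% and 1.24%). All of the genes tested were called in MV411, 5 of 5 (12.5% and 2.63%), and 5 of 7 in NB4 (13.2% and 4.82%). KASUMI1 had 3 of 5 called (14.6% and 6.52%), as did MOLM13 (8.59% and 3.37%). These counts include genes that passed the filter on low counts only through their etoposide libraries. Of the genes with at least 10 reads in every untreated library, CXCL8 alone was called in F36P, KASUMI1 and NB4. Under that condition CXCL8 and CCL2 were called in MOLM13, both with CCL5 in HL60 and MV411, and CXCL8, CXCL2 and CCL5 in THP1. The calls without CCL4 in NOMO1, and without CXCL3, CXCL16 and CCL4 in MONOMAC6, also met it. OCIAML3, with 7 genes tested, had 2 called, CXCL8 and CXCL3 (7.18% and 1.36%). In this line CXCL2 fell just short of the fold change limit (1.00 ± 0.17), and it was called once either untreated replicate 2, etoposide replicate 2 or etoposide replicate 3 was left out (log2 fold change 1.03 to 1.05).

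**Figure D2:**
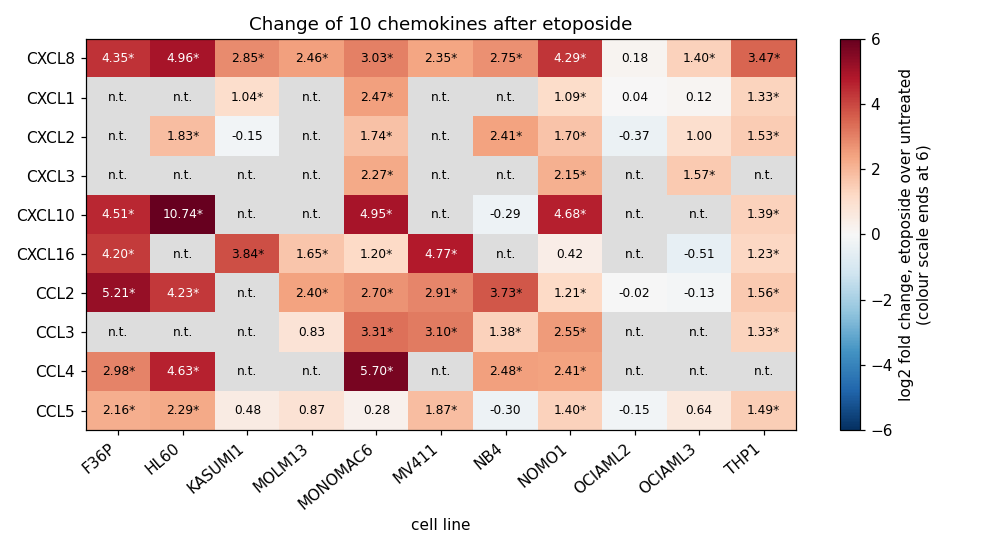
Log2 fold change, etoposide over untreated, of the 10 chemokine genes (rows) in the 11 cell lines (columns), with the value in each cell, an asterisk where the gene was called, and grey cells marked n.t. where too few reads allowed no test. Asterisks fill the CXCL8 row except in OCIAML2, which has none in any row, and the CXCL10 value in HL60 is a fitted one that depends on the prior count, since its untreated libraries held no read.

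CXCL1, CXCL2 and CXCL3 encode the growth-regulated chemokines, close relatives that attract neutrophils. CXCL1 had no read in any library, untreated or treated, of F36P, HL60, MOLM13 and NB4, and 1 read in all 6 MV411 libraries together. A floor of 3 reads over the group allows an untreated level of up to 0.0520 CPM in F36P, counting error only. OCIAML3 stood far above the others, at 43.5, 43.6 and 41.7 CPM untreated and 47.4, 45.4 and 47.3 CPM after etoposide, a log2 fold change of 0.12 ± 0.07. The line with the most CXCL1 was thus at 1.09 times its untreated level. In MONOMAC6 CXCL1 went from 3.27, 2.88 and 2.60 to 15.4, 15.6 and 17.5 CPM (2.47 ± 0.11), and in THP1 from 0.681, 0.464 and 1.19 to 2.09, 1.87 and 1.92 CPM (1.33 ± 0.31). The groups did not overlap in either line. The changes in NOMO1 (1.09 ± 0.20) and KASUMI1 (1.04 ± 0.31) lay close to the fold change limit. The call was lost in NOMO1 without untreated replicate 2 (0.98), and in KASUMI1 without untreated replicate 2 (0.89) or etoposide replicate 2 (0.81).

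CXCL2 was low in all lines, with no untreated mean above 1.55 CPM. In NB4 it went from 0.406, 0.164 and 0.344 to 1.57, 1.67 and 1.74 CPM, the largest of its log2 fold changes at 2.41 ± 0.34. HL60 libraries held 0.522, 0.258 and 0.454 CPM untreated and 1.197, 1.21 and 1.99 CPM after etoposide (1.83 ± 0.36). The gene was also called in MONOMAC6 (1.74 ± 0.16), NOMO1 (1.70 ± 0.18) and THP1 (1.53 ± 0.27), with etoposide libraries between 1.79 and 5.28 CPM in these 3 lines. In KASUMI1 the groups overlapped, with 1.47, 1.63 and 1.53 CPM untreated and 1.18, 1.62 and 1.38 CPM after etoposide (-0.15 ± 0.21). In MOLM13 the order was turned around, since the untreated libraries held 5, 4 and 11 reads and the etoposide libraries 2, 1 and 1, too few for the test. CXCL3 was called in the 3 lines where it could be tested. It went from 0.765, 0.547 and 0.343 to 3.43, 2.65 and 1.92 CPM in MONOMAC6 (2.27 ± 0.31), from 0.668, 0.893 and 0.702 to 2.94, 4.33 and 2.83 CPM in NOMO1 (2.15 ± 0.26) and from 0.984, 0.977 and 1.24 to 3.55, 2.55 and 3.43 CPM in OCIAML3 (1.57 ± 0.21). In OCIAML3 the fold change of CXCL3 was thus close to that of CXCL8, whereas CXCL1 had a fold change of 1.09. KASUMI1 had 36 CXCL3 reads over its untreated and 18 over its etoposide libraries, and MOLM13 and MV411 had none.

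CXCL10, the interferon-inducible chemokine, was called in 5 of the 6 lines where it was tested. In MONOMAC6 it was at 4.08, 3.43 and 3.97 CPM untreated and at 127, 115 and 115 CPM after etoposide, a log2 fold change of 4.95 ± 0.09. NOMO1 went from 1.59, 1.54 and 1.62 to 26.5, 70.9 and 24.7 CPM (4.68 ± 0.42), and F36P from 0.451, 0.348 and 0.668 to 10.6, 1.06 and 22.4 CPM (4.51 ± 0.96). The replicates after etoposide lay close together in MONOMAC6 and far apart in F36P and NOMO1, where the values without the library that stood apart were 5.04 and 3.99. Without etoposide replicate 3, the F36P value was 3.56. HL60 held no CXCL10 read in its untreated libraries and 176, 112 and 380 reads in its etoposide libraries, which was at least 226-fold higher against a floor of 3 reads over the group. THP1 went from 0.681, 0.412 and 0.467 to 1.60, 0.936 and 1.57 CPM (1.39 ± 0.34). NB4 had more CXCL10 untreated than NOMO1, and its groups overlapped, with 2.18, 2.24 and 3.44 CPM untreated and 1.92, 2.54 and 1.93 CPM after etoposide (-0.29 ± 0.23). Too few reads were present in KASUMI1, MOLM13, MV411 and OCIAML3 for a test. KASUMI1 had 1 untreated read and 14 after etoposide, a ratio of 13.7 with an exact 95% interval of 2.09 to 579.7 for counting error only.

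CXCL16 differs from the other members in that it is made as a membrane protein, which scavenges oxidised lipoprotein and is cut loose by ADAM10 or ADAM17. It was most abundant in NOMO1, at 8.33, 9.47 and 8.86 CPM untreated and 13.3, 11.6 and 10.8 CPM after etoposide (0.42 ± 0.12), which was not called. The lines with almost no untreated transcript had the larger fold changes. Every line where CXCL16 was called held fewer than 10 reads in at least 1 untreated library. These lines thus passed the filter on low counts through their etoposide libraries, so nothing is read from this order. NOMO1 and OCIAML3, with more untreated reads, were not called. MV411 libraries held 1, 0 and 1 reads untreated and 25, 27 and 31 after etoposide, a ratio of 34.4 (exact 95% interval 9.22 to 289). KASUMI1 held 0, 1 and 2 reads untreated and 18, 15 and 22 after etoposide, a ratio of 17.95 over all libraries (5.83 to 89.7). The fitted log2 fold change in KASUMI1 was 3.84, and 4.73 without untreated replicate 3. F36P went from 0.0564, 0.0580 and 0.223 to 2.55, 1.77 and 2.27 CPM (4.20 ± 0.42; 5.01 without untreated replicate 3). In all 3 the groups did not overlap, although levels after etoposide stayed below 3 CPM. Smaller calls were made in MOLM13 (1.65 ± 0.36), THP1 (1.23 ± 0.37) and MONOMAC6 (1.20 ± 0.29). The MONOMAC6 call was lost without untreated replicate 2 (0.95), and the THP1 call was lost without untreated replicate 1, untreated replicate 2 or etoposide replicate 3 (1.01, 1.25 and 1.11). OCIAML3 had 1.38, 1.76 and 1.77 CPM untreated and 0.655, 1.25 and 1.52 CPM after etoposide, overlapping groups with a log2 fold change of -0.51 ± 0.29.

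CCL2, the monocyte attractant MCP-1, was called in 8 of the 9 lines where it was tested. In F36P it went from 0.226, 0.348 and 0.111 to 7.12, 8.12 and 10.6 CPM, a log2 fold change of 5.21 ± 0.32, and in HL60 from 1.41, 0.671 and 1.64 to 14.3, 14.3 and 40.9 CPM (4.23 ± 0.44; 3.54 without the high library). NB4 libraries read 0.457, 0.546 and 0.229 CPM untreated and 2.79, 7.45 and 6.56 CPM after etoposide (3.73 ± 0.41). These 3 lines began near or below 1 CPM. MONOMAC6 and NOMO1 ended at nearly the same level from different starts. MONOMAC6 went from 14.5, 13.9 and 13.3 to 98.1, 92.1 and 81.6 CPM (2.70 ± 0.08) and NOMO1 from 40.4, 29.2 and 47.0 to 97.4, 90.0 and 81.5 CPM (1.21 ± 0.14). The changes in MV411 (2.91 ± 0.17), MOLM13 (2.40 ± 0.32) and THP1 (1.56 ± 0.37) also came from groups that did not overlap. The exception was OCIAML3, with 6.05, 7.77 and 8.56 CPM untreated and 7.02, 6.17 and 7.27 CPM after etoposide (-0.13 ± 0.15). KASUMI1 held 1 read untreated and 26 after etoposide and was not tested.

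**Figure D3:**
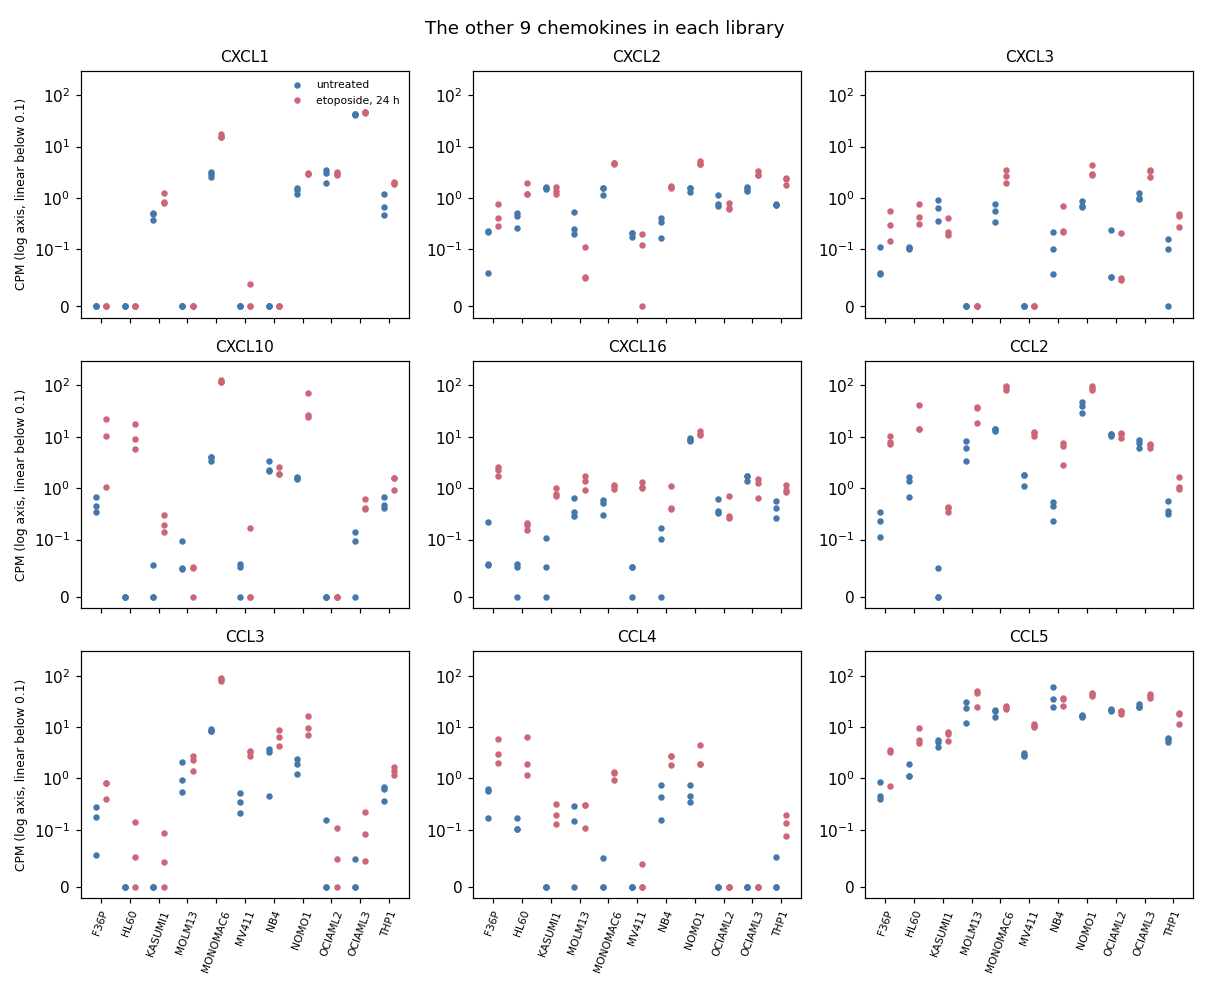
CPM of the 9 chemokine genes other than CXCL8 in each library (log axis, linear below 0.1), untreated in blue and etoposide in red, with cell lines in the same order in every panel. For CXCL10 and CCL2 all etoposide points lie above all untreated points in MONOMAC6, NOMO1, HL60 and F36P, narrowly for CXCL10 in F36P and CCL2 in NOMO1. CXCL1 in OCIAML3 and CCL5 in NB4 stay at about their untreated level.

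CCL3 and CCL4 encode the macrophage inflammatory proteins MIP-1-alpha and MIP-1-beta, which lie close together on chromosome 17. For CCL3 the largest change was in MONOMAC6, from 8.22, 8.21 and 8.98 to 89.3, 85.8 and 77.5 CPM (3.31 ± 0.08). MV411 went from 0.525, 0.342 and 0.208 to 2.73, 3.23 and 3.38 CPM (3.10 ± 0.29) and NOMO1 from 1.95, 1.24 and 2.43 to 9.70, 16.1 and 7.08 CPM (2.55 ± 0.31). Replicates did not overlap in these lines. In THP1 the change was 1.33 ± 0.33, and in NB4, where libraries went from 0.457, 3.82 and 3.27 to 4.31, 8.74 and 6.33 CPM, it was 1.38 ± 0.41. The NB4 call rested on untreated replicate 1, since without it the value was 0.85 and not called. MOLM13 overlapped, with 0.540, 0.939 and 2.10 CPM untreated and 1.38, 2.26 and 2.72 CPM after etoposide (0.83 ± 0.42). It was called without untreated replicate 3 (1.51) or without etoposide replicate 1 (1.07), as was CCL5 in the same line (1.17 and 1.13).

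CCL4 stayed below 7 CPM in every library. MONOMAC6 held 1, 0 and 0 CCL4 reads untreated and 30, 27 and 21 after etoposide, a ratio of 76.0 (exact 95% interval 13.3 to 3041). In HL60 it went from 0.104, 0.103 and 0.170 to 1.15, 1.94 and 6.53 CPM (4.63 ± 0.75; 3.57 without the high library). F36P went from 0.169, 0.580 and 0.612 to 3.02, 1.97 and 5.84 CPM (2.98 ± 0.51), and the log2 fold changes were 2.48 ± 0.37 in NB4 and 2.41 ± 0.42 in NOMO1. Without the libraries that stood apart they were 2.04 and 1.87. HL60 and MV411 thus separated the 2 neighbours, since HL60 held 4 CCL3 reads over its 3 etoposide libraries and 197 CCL4 reads, while MV411 held 229 CCL3 reads and 1 CCL4 read. The difference between the 2 genes was not tested.

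CCL5, or RANTES, which attracts T cells and monocytes, was the one member other than CXCL8 with enough reads for a test in all 10 lines. It was called in 5 of them. HL60 went from 1.10, 1.14 and 1.87 to 4.84, 5.62 and 9.46 CPM (2.29 ± 0.29), MV411 from 2.73, 3.19 and 2.81 to 9.97, 11.6 and 10.4 CPM (1.87 ± 0.14) and THP1 from 5.13, 5.93 and 6.02 to 11.6, 18.5 and 18.03 CPM (1.49 ± 0.19). NOMO1 went from 16.3, 15.9 and 17.1 to 45.5, 43.7 and 41.0 CPM (1.40 ± 0.09). In F36P the groups overlapped, with 0.451, 0.870 and 0.390 CPM untreated and 3.30, 0.706 and 3.62 CPM after etoposide, and the change was 2.16 ± 0.58 with all libraries and 2.59 without etoposide replicate 2. The other 5 lines were not called. NB4, the line with most CCL5 before treatment, had 24.5, 35.2 and 61.6 CPM untreated and 25.8, 35.0 and 37.4 CPM after etoposide (-0.30 ± 0.23). MONOMAC6 had a log2 fold change of 0.28 ± 0.11, and the value was 0.48 ± 0.18 in KASUMI1, 0.64 ± 0.10 in OCIAML3 and 0.87 ± 0.31 in MOLM13.

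Markers of other cell types moved in the same libraries. The summed level of the monocytic markers CD14, CSF1R, ITGAM and FCGR1A was higher in all 3 etoposide libraries than in any untreated one in each of the 10 lines. For these markers 20 of 34 tested marker and line pairs were called higher and 2 lower, and the sums ranged from 4.03 to 278 CPM untreated and from 7.57 to 445 CPM after etoposide. Beside these and the marker counts below, 11.1% of pairs over all genes were called higher and 3.96% lower. The myeloid markers had 6 of 50 pairs called higher and 6 lower, with sums above every untreated library in 4 lines and below in 5. The stromal markers COL1A1, COL1A2 and PDGFRB were also called higher in 13 of 18 pairs, with sums of at most 7.91 CPM untreated and 20.1 CPM after etoposide. COL1A2 was at a median of 0 CPM over untreated lines, as were MS4A1 of the lymphoid and CDH5 of the endothelial markers. Endothelial markers were called higher in 6 of 15 pairs, lymphoid markers in 3 of 10 with 1 lower, and erythroid markers in 1 of 11 with 3 lower. Markers with few untreated reads could pass the filter on low counts through their etoposide libraries alone. The part of these marker shifts in the chemokine changes was not tested.

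OCIAML2 did not enter the choice of genes and can be tested. None of the 5 members with enough reads was called, and neither was any other gene by that rule (0% of 13604 genes higher and 0% lower; 456 genes had an unadjusted p below 0.05, and the edgeR exact test and DESeq2 also called none, with 455 and 195 at that p). CXCL8 stood at 47.7, 37.1 and 51.0 CPM untreated and 51.8, 44.1 and 58.6 CPM in the libraries labelled etoposide (0.18 ± 0.11, adjusted p = 0.998, edgeR). CCL2 read 11.5, 10.5 and 11.3 and 11.5, 11.7 and 9.53 CPM (-0.02 ± 0.10, adjusted p = 0.998, edgeR). CCL5 read 21.8, 21.0 and 22.2 and 20.2, 18.01 and 20.2 CPM, all 3 etoposide libraries being below the untreated ones (-0.15 ± 0.08, adjusted p = 0.998, edgeR). CXCL1 had a log2 fold change of 0.04 ± 0.20 and CXCL2 one of -0.37 ± 0.29, again with an adjusted p of 0.998 each in edgeR. OCIAML2 held no read of CXCL10 or CCL4 in any of its 6 libraries. The difference between OCIAML2 and the other lines was not tested.

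Untreated cells differed in their chemokine levels as well, which the choice of genes did not use. All 10 genes differed between the 11 untreated lines at an FDR below 0.05 (edgeR quasi-likelihood F test), but so did 99.4% of the 18130 genes tested, so the share is no result about the chemokines. For CXCL8 the order ran from OCIAML3 (138 ± 22.1 CPM, mean ± SD, n = 3) and MONOMAC6 (120.1 ± 7.26) through NOMO1 (52.6 ± 7.33), OCIAML2 (45.2 ± 7.25), NB4 (36.5 ± 20.1), HL60 (14.5 ± 2.04), THP1 (10.02 ± 3.07), MOLM13 (9.46 ± 1.17) and KASUMI1 (6.03 ± 1.16) to MV411 (1.49 ± 0.392) and F36P (1.28 ± 0.246). Neighbours in this order differed at 3 of the 10 steps. MONOMAC6 was higher than NOMO1 by 1.19 on the log2 scale (adjusted p = 2.25e-05, edgeR), NB4 was higher than HL60 by 1.33 (adjusted p = 2.48e-05, edgeR) and KASUMI1 was higher than MV411 by 2.03 (adjusted p = 4.48e-05, edgeR). Of all genes, 63.8%, 69.4%, 65.7%, 67.6%, 59%, 71.5%, 64.5%, 67.3%, 67.3% and 72.7% differed at the same 10 steps, from OCIAML3 down to F36P. Neighbours at the other 7 steps, OCIAML3 and MONOMAC6 among them, did not differ beyond their spread, the smallest adjusted p being 0.0596 (MOLM13 against KASUMI1, edgeR).

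The other chemokines did not share 1 order. OCIAML3 led for CXCL1 (42.6 ± 1.61 CPM), ahead of OCIAML2 (2.87 ± 0.795) by 3.89 on the log2 scale (adjusted p = 4.10e-16, edgeR; 59.8% of all genes differed between these lines). NOMO1 led for CXCL16 (7.95 ± 0.534) and CCL2 (34.8 ± 7.92), in both cases above the next line, OCIAML3 for CXCL16 (1.62 ± 0.223, adjusted p = 1.68e-11, edgeR, with 68.2% of all genes) and MONOMAC6 for CCL2 (13.4 ± 0.604, adjusted p = 3.27e-08, edgeR, with 69.4% of all genes). MONOMAC6 led for CCL3 (8.14 ± 0.426, against 2.39 ± 1.71 in NB4, adjusted p = 3.93e-05, edgeR) and for CXCL10 (3.68 ± 0.338, against 2.49 ± 0.656 in NB4, adjusted p = 0.0171, edgeR), where 68.6% of all genes differed. NB4 led for CCL5 (38.4 ± 17.9, against 25.6 ± 2.80 in OCIAML3, adjusted p = 0.0190, edgeR), where 67.2% of all genes differed. For CXCL2, CXCL3 and CCL4 the first and the second line did not differ at an FDR below 0.05, the leaders being KASUMI1 (1.55 ± 0.0768), OCIAML3 (1.06 ± 0.136) and NOMO1 (0.467 ± 0.187), although 67.5%, 68.2% and 75.5% of all genes differed between the lines concerned. F36P had the lowest mean for CXCL8, CXCL2 and CCL5, but did not differ from the next line at an FDR below 0.05. That line was MV411 for CXCL8 and CXCL2 (adjusted p = 0.760 and 0.803, edgeR) and HL60 for CCL5 (adjusted p = 0.0598, edgeR).

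**Figure D4:**
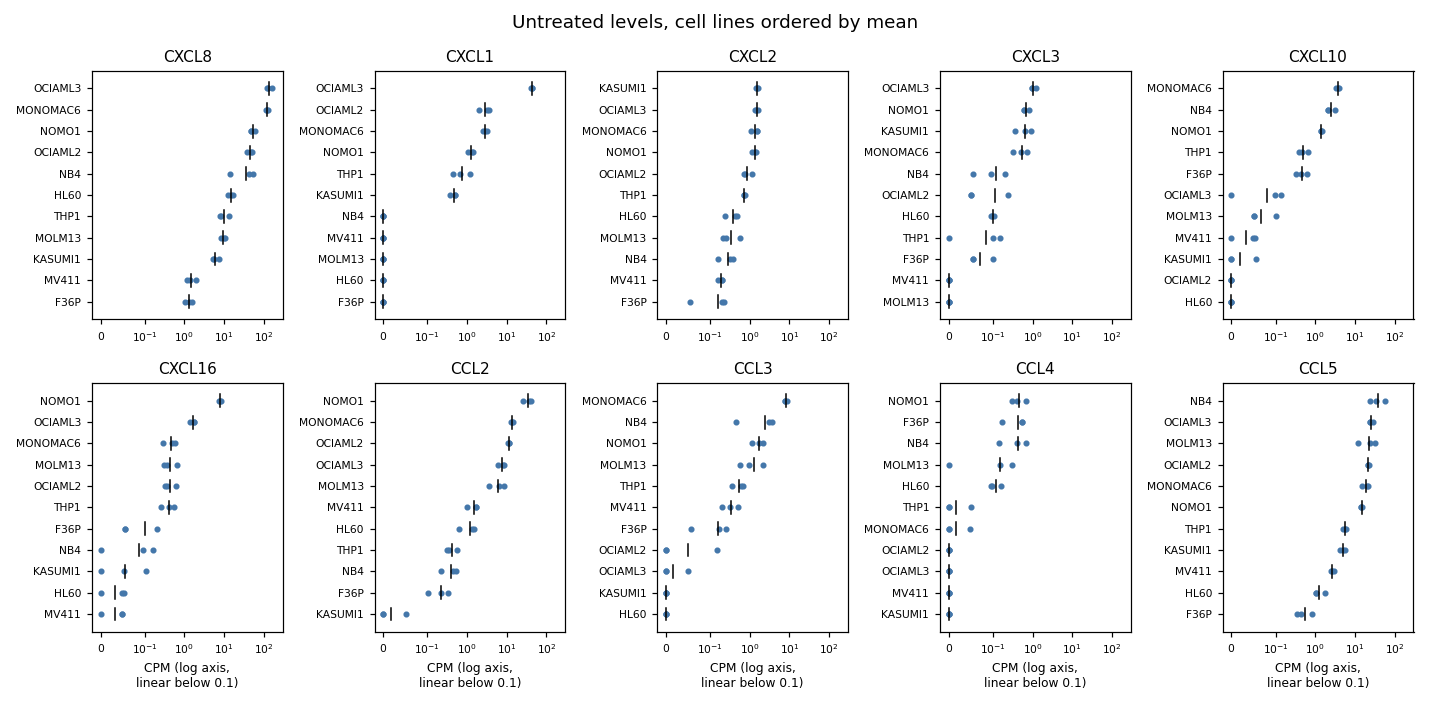
CPM of each chemokine gene in the 33 untreated libraries (log axis, linear below 0.1), with lines ordered by their mean in each panel; points are libraries and black bars are means of 3. CXCL8 spans from about 1 CPM in F36P to above 100 CPM in OCIAML3, CXCL1 is at 0 in 5 lines, and the order of lines changes from gene to gene.

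Genes whose pattern came closest to that of CXCL8 were looked up by Pearson's r, as a description over few points that rest on the same libraries. Across the 10 lines, among 10533 genes tested in all of them, the etoposide log2 fold changes of CFAP418 (r = 0.89), PATL1 (0.86), MAFF (0.86), PLEKHF1 (0.85) and ARMC9 (0.85) were most alike. The size of the change was not, since CFAP418 only ranged from -0.28 to 0.40 and PLEKHF1 from 0.17 to 3.16. CCL5, the only other member tested in all 10 lines, had an r of 0.61 and ranked 292. Across the 11 untreated lines, among 13594 genes, log2(CPM + 1) of ZDHHC3 (r = 0.92), MNDA (0.90), PDK3 (0.89), SEMA3F (0.88) and the gene ENSG00000253968 (0.85) came closest, MNDA being a nuclear antigen of myelomonocytic cells. Of the members, CCL5 (0.76), CXCL1 (0.72) and CCL2 (0.69) ranked 65, 113 and 170, and CXCL16 (0.51) and CCL3 (0.45) ranked 980 and 1431. The remaining 4 were not among the genes compared.

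The remaining chemokines and their receptors were examined as whole lists. For each named gene of these and the later lists, CPM values are shown in the line with its largest called change. A p-value given with them thus belongs to a line picked by its value. Of 38 other chemokines 36 were in the files, and 60 pairs of a gene and a line could be tested. Of these, 35 were called higher and 0 lower, beside 11.1% and 3.96% of all genes. In edgeR 0 of the 60 pairs were lower even at an unadjusted p below 0.05, and DESeq2 and the exact test called 0 lower as well. With at least 10 reads in every untreated library the counts were 10 and 0 of 30, beside 6.72% and 4.31% of all genes. In the remainder an untreated library held fewer than 10 reads, so that the gene was tested only through its etoposide libraries, and here and below such values are given without a p-value. CCL4L2, a copy of CCL4, was called in 5 of 5 lines (1 of 1 with enough untreated reads). In KASUMI1 it went from 0.0508, 0 and 0.0548 to 2.80, 4.62 and 2.99 CPM, or from 2 to 226 reads, a ratio of 111 (exact 95% interval 30.3 to 919). CCL3L3, a copy of CCL3, was called in 5 of 8 lines (2 of 4 with enough untreated reads), also with its largest change in KASUMI1, from 0.0508, 0.210 and 0 to 1.97, 3.29 and 1.75 CPM (log2 fold change 4.63 ± 0.57; 6.15 without untreated replicate 2). KASUMI1 thus had more reads on the copies than on CCL3 (3 reads after etoposide) and CCL4 (14). CXCL11, a CXCR3 ligand like CXCL10, was called in 4 of 4 lines (1 of 1), in F36P going from 0.0564, 0.0580 and 0.167 to 3.02, 0.857 and 6.37 CPM (5.09 ± 0.93; 4.28 without etoposide replicate 3). CCL22, a ligand of CCR4, was called in 4 of 6 lines (0 of 2), in MV411 going from 0.157, 0.114 and 0.104 to 1.47, 1.44 and 1.42 CPM (3.46 ± 0.39).

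Chemokine receptors gave 56 calls higher and 3 lower in 101 pairs, beside 11.1% and 3.96% of all genes, or 25 and 3 of 69 with at least 10 reads in every untreated library, beside 6.72% and 4.31%. CXCR3, the receptor of CXCL10 and CXCL11, was called in 8 of 9 lines (4 of 5 with enough untreated reads). In KASUMI1 no CXCR3 read was present untreated, and the etoposide libraries read 0.612, 1.24 and 0.690 CPM, at least 17.95-fold higher against a floor of 3 reads over the group. CXCR2, the receptor of CXCL8 and CXCL1 to CXCL3, was called in 6 of 10 lines (5 of 9 with enough untreated reads), namely F36P, KASUMI1, MOLM13, MV411, NB4 and OCIAML3. F36P went from no read to 2.5, 2.02 and 1.74 CPM, at least 43.7-fold higher against the same floor, while THP1 had a log2 fold change of -0.09 (adjusted p = 0.65, edgeR). CCRL2, an atypical receptor that presents chemerin, was called in 7 of 8 lines (4 of 5), in KASUMI1 going from 0.102, 0.0525 and 0.164 to 1.31, 1.72 and 1.84 CPM (3.87 ± 0.39). CCR3, an eosinophil receptor that binds CCL5, was called in 5 of 5 lines (1 of 1), in KASUMI1 going from 0, 0.0525 and 0 to 0.699, 1.29 and 0.920 CPM, or from 1 to 63 reads, a ratio of 61.7 (exact 95% interval 10.7 to 2475). The fitted log2 fold change was 5.36, and 7.32 without untreated replicate 2, which held the single read. The 3 calls lower, named after their values were seen, were CCR2, the receptor of CCL2, in MONOMAC6 (-2.16, adjusted p = 7.8e-10, edgeR) and NOMO1 (-1.29, adjusted p = 1.1e-06, edgeR), and CXCR4 in NB4 (-1.59, adjusted p = 5.3e-08, edgeR). CCL2 was higher in these libraries of MONOMAC6 and NOMO1, but the 2 genes did not go opposite ways in every line. In other lines with CCL2 called higher, CCR2 was tested and not called. Its log2 fold change there was -0.77 in NB4, -0.46 in THP1, 0.10 in MV411, 0.55 in MOLM13 and 0.79 in HL60. A relation between CCL2 and CCR2 was not tested.

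Among 19 NF-kB subunits and regulators, 56 of 188 pairs were called higher and 2 lower, beside 11.1% and 3.96% of all genes, or 54 and 2 of 185 with at least 10 reads in every untreated library, beside 6.72% and 4.31%. The median log2 fold change was 0.35. BCL3, a nuclear partner of the p50 and p52 subunits, was called in 10 of 10 lines, 9 of them with at least 10 reads in every untreated library, with log2 fold changes from 1.10 (MOLM13) to 4.90 (HL60). HL60 went from 0.0522, 0.258 and 0.284 to 4.27, 3.89 and 9.84 CPM (4.90 ± 0.51). RELB, the subunit of the non-canonical pathway, rose in 8 lines, in HL60 from 3.08, 5.42 and 5.10 to 43.4, 47.4 and 87.0 CPM (3.71 ± 0.27, adjusted p = 1.47e-06, edgeR). It was not called in NB4 (0.69, adjusted p = 0.0047, edgeR, below the fold change limit) or OCIAML3 (0.44, adjusted p = 0.06, edgeR). NFKB2, the p52 precursor that pairs with RELB, rose in 6 lines, in HL60 from 13.04, 17.2 and 16.1 to 96.7, 96.4 and 176 CPM (3.00 ± 0.21, adjusted p = 1.26e-06, edgeR). TRAF1, an adaptor of TNF receptors, rose in 7 lines, in F36P from 0.733, 0.928 and 0.724 to 9.01, 9.53 and 13.9 CPM (3.76 ± 0.25, adjusted p = 2.76e-06, edgeR). The 2 calls lower, named after their values were seen, were TNFAIP3 in NB4 (-1.27, adjusted p = 6e-05, edgeR) and NFKBIB in KASUMI1 (-1.04, adjusted p = 0.0022, edgeR).

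Of 16 inflammatory cytokine genes, 58 of 89 pairs were called higher and 1 lower, beside 11.1% and 3.96% of all genes, or 30 and 1 of 60 with at least 10 reads in every untreated library, beside 6.72% and 4.31%. CSF1, the macrophage growth factor, was called in 8 of 8 lines (5 of 5 with enough untreated reads), in KASUMI1 going from 0.102, 0.105 and 0.164 to 1.14, 1.67 and 1.56 CPM (3.50 ± 0.37). IL1B, which encodes interleukin-1-beta, was called in 7 of 9 lines (5 of 7 with enough untreated reads), in NB4 going from 0.102, 0.327 and 0.458 to 7.14, 7.31 and 8.12 CPM (4.67 ± 0.28). IL23A, a subunit of interleukin-23, rose in 8 of 10 lines (5 of 7 with enough untreated reads), in NOMO1 from 4.06, 4.46 and 3.73 to 35.5, 93.7 and 36.4 CPM (3.75 ± 0.36, adjusted p = 5.14e-06, edgeR; 3.12 without etoposide replicate 2). The call lower, named after its value was seen, was OSM in NB4 (-1.08, adjusted p = 0.00052, edgeR). IL18, an inflammasome substrate like IL1B, was called in 7 of 10 lines (5 of 8 with enough untreated reads), in MONOMAC6 going from 0.306, 0.249 and 0.540 to 2.19, 2.37 and 2.05 CPM (2.57 ± 0.27).

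The 8 interferon regulators, chosen with CXCL10 in mind, had 19 of 61 pairs called higher and 0 lower, beside 11.1% and 3.96% of all genes, or 18 and 0 of 60 with at least 10 reads in every untreated library, beside 6.72% and 4.31%. Of the 61 pairs, 1 was lower at an unadjusted p below 0.05 in edgeR and DESeq2 and the exact test also called 0 lower. IRF7, the inducible interferon regulatory factor, rose in 8 of 10 lines, in KASUMI1 from 0.559, 0.841 and 0.877 to 6.34, 11.01 and 9.48 CPM (3.55 ± 0.28, adjusted p = 5.46e-06, edgeR). STAT2 rose in 4 lines, in F36P from 56.3, 47.9 and 49.7 to 178, 108 and 229 CPM (1.74 ± 0.23, adjusted p = 0.000128, edgeR), and its partner IRF9 in 3, in F36P from 4.003, 4.29 and 4.01 to 16.9, 13.5 and 16.9 CPM (1.94 ± 0.16, adjusted p = 6.52e-06, edgeR). IRF1 rose in 2 lines, in F36P from 20.9, 19.5 and 16.5 to 46.6, 41.4 and 57.6 CPM (1.36 ± 0.16, adjusted p = 5.79e-05, edgeR). NB4 had IRF7 higher by 2.44 (adjusted p = 5.9e-08, edgeR) although its CXCL10 libraries overlapped.

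Genes whose products bind AU-rich chemokine transcripts and speed or delay their decay gave 8 of 70 pairs higher and 3 lower (11.4% and 4.29%). All 70 had at least 10 reads in every untreated library, a condition under which 6.72% and 4.31% of all genes were called. ZFP36L1 rose in 6 lines, in NOMO1 from 1.75, 1.59 and 1.35 to 8.31, 14.4 and 7.63 CPM (2.69 ± 0.26, adjusted p = 6.42e-06, edgeR). ZFP36L2 fell in NB4 and NOMO1, in NB4 from 204, 169 and 161 to 78.5, 74.9 and 71.0 CPM (-1.25 ± 0.10, adjusted p = 6.65e-08, edgeR). The other call lower was HNRNPD in F36P (-1.04, adjusted p = 1.7e-05, edgeR), named after its value was seen. ZFP36, or tristetraprolin, was called in 1 of 10 lines, F36P, where 24.3% of all genes were called higher, and went from 4.96, 4.76 and 4.45 to 25.5, 28.2 and 36.4 CPM (2.67 ± 0.17, adjusted p = 2.49e-06, edgeR). The endonuclease gene ZC3H12A was likewise called in F36P and no other line, and went from 8.74, 7.25 and 6.46 to 13.2, 14.6 and 20.2 CPM (1.10 ± 0.19, adjusted p = 0.000738, edgeR). The difference between F36P and the other lines was not tested for either gene. The ZC3H12A call was lost without untreated replicate 3 (log2 fold change 0.89) or etoposide replicate 3 (0.89). The CXCL16 sheddases ADAM10 and ADAM17 were called in 0 of 20 pairs in edgeR, where 8 pairs were higher and 4 lower at an unadjusted p below 0.05 and the exact test and DESeq2 also called 0.

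**Figure D5:**
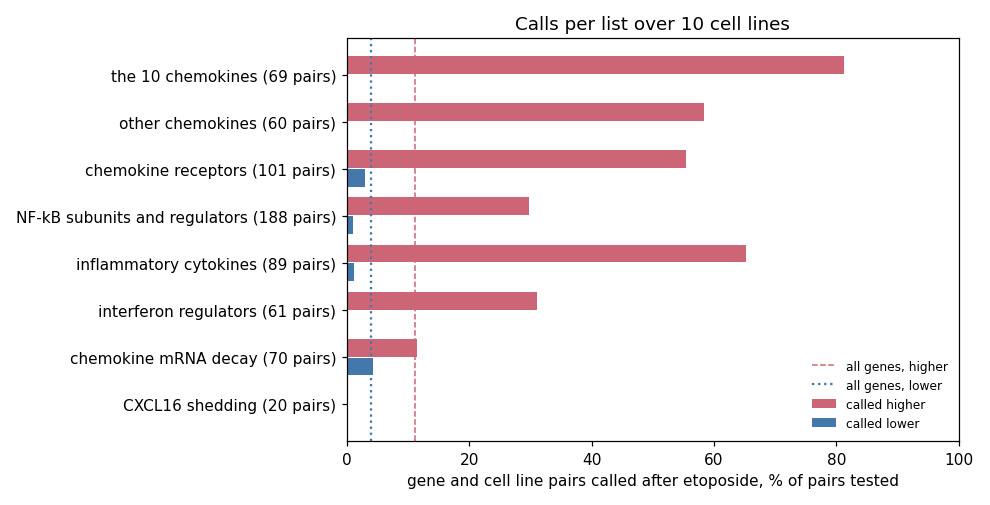
Share of gene and cell line pairs called higher (red) and lower (blue) after etoposide in each list over the 10 lines, as a percentage of the pairs tested, with dashed and dotted lines at the shares among all genes. The 10 chemokines stand at 81.2% and were chosen with this contrast known, inflammatory cytokines at 65.2%, and the decay factors at 11.4%, at the dashed line. The shares are not limited to genes with at least 10 reads in every untreated library, among which 6.72% of all genes were called higher and 4.31% lower.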

How the data were processed

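Per the labels, total RNA from 11 AML cell lines was made into libraries with a stranded mRNA kit and sequenced on an Illumina HiSeq. The authors mapped reads with STAR 2.5.3a to GRCh38.p7 with gencode 25, and deposited read counts per gene, 1 column per library without normalization, for 58037 identifiers. The strand setting of the counts is not given in the sources used here. Of 707 genes that lie within 1 exon on the other strand, 463 had reads, and counting without strand would leave such reads unassigned. The authors called changes with edgeR 3.20.1.

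After leaving out 45 pseudoautosomal copies with 0 reads, symbols and positions came from gencode 44 for 56948 identifiers. Each line was fitted by itself (3 against 3 libraries) in edgeR 4.0.16 (R 4.3.3) after filterByExpr (minimum count 10, minimum total 15) and TMM. Quasi-likelihood p-values were adjusted by Benjamini-Hochberg over every gene in that fit. Untreated lines were compared in 1 fit of 33 libraries. CPM and log2 fold changes were computed here from the counts. The members and lists were chosen with earlier results of these data known, and some listed genes are not reported here by name. Named genes were the members, up to 4 genes of each list called in the most lines, and the 5 most like CXCL8 in each of the 2 correlations. In MOLM13, NB4 and OCIAML2 same-numbered libraries deviated together by more than a set limit of r = 0.1 (lowest r 0.182, 0.196 and 0.115). The numbers may thus pair them, which comes from the data and not from the labels. Differently numbered libraries were not compared, so pairing was not tested, and the main fits did not use it. All 66 replicate pairs differed by more than sampling noise. Alternatives were RLE or no scaling, no filter, the exact test, DESeq2 1.42.0, the replicate block, no fold change minimum, and each library left out. The fits were tested on simulated data. Exact intervals and floors (3 reads) cover counting error only.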

Additional observations from a re-analysis of the deposited data

Results flagged for a closer look

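CXCL2 in MOLM13 went against the other lines. All 3 etoposide libraries (0.111, 0.0502 and 0.0512 CPM, mean 0.0707) lay below all 3 untreated ones (0.245, 0.198 and 0.536 CPM), whereas they lay above them in 7 other lines. The counts were 20 reads untreated and 4 after etoposide, and the difference between lines was not tested.

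CCL5 in OCIAML2 was flagged for the same pattern, in etoposide libraries that the study discarded. In that line 0 of 13604 genes were called higher or lower. Its etoposide libraries had a mean of 19.5 CPM, all below the untreated libraries, and they lay above in 6 other lines. The change within OCIAML2 was -0.15 ± 0.08 with an adjusted p of 0.998 in edgeR, and the difference between lines was not tested.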

How the results depend on the processing

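The count of 56 chemokine calls higher was between 54 (DESeq2) and 65 (no filter on low counts) under the alternatives run, between 55 and 58 with 1 library left out, and 56 with the replicate number as a block, which changed no member call. The count lower, 0, was 2 without the filter, namely CXCL2 in MOLM13 and CXCL3 in KASUMI1, and between 0 and 1 with 1 library left out (CXCL3 in KASUMI1 without untreated replicate 1 or etoposide replicate 3, log2 fold change -1.49 and -1.60). DESeq2 lost CCL3 in NB4 and CXCL1 in KASUMI1. In OCIAML2 the count stayed at 0, and in untreated lines at 10, under every alternative run.

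Without the filter, other chemokines gave 63 calls higher in place of 35. Without a fold change minimum, calls higher numbered 98 for NF-kB genes, 42 for interferon regulators, 23 for decay factors and 7 for sheddases, and calls lower over the lists numbered 70 in place of 9. Sheddases gave 1 call higher with library size alone, and between 0 and 1 with 1 library left out. Library size alone moved the median log2 fold change of all genes most in F36P, from 0.09 to 0.34. It moved the share of calls that were higher from 69.1% to 81.1% in KASUMI1 and from 73.2% to 85.7% in NB4. The cause of these shifts was not tested. Among the called log2 fold changes of named pathway genes, 0 reversed under an alternative, and ZC3H12A in F36P alone lost its call, in 3 of them. Depth limits mainly the 31 pairs of a chemokine and a line that had too few reads for a test.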
